A study of Mus musculus with 4 samples.

Results

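The comparison of the arrays numbered 1 with the arrays numbered 0 used all 4 of the 4 arrays of the series, chosen by their titles: cDNA array 1 and aRNA array 1 on one side, cDNA array 0 and aRNA array 0 on the other. Each array read total RNA labelled as mouse brain, hindbrain and spinal cord, with no strain, age, sex, treatment or number of animals given. The cDNA arrays carried target amplified with a Nugen kit, and the aRNA arrays carried antisense RNA from T7-based amplification. What the numbers 0 and 1 stand for is not in the labels, so a direction here means only higher or lower on number 1, and no condition can be attached to it. No label says that the arrays came from separate animals or cultures, so the p-values measure only the spread between these arrays. The own spread of a probe set is how far its cDNA difference lay from its aRNA difference. Each SE and p-value rests on it only in small part, and mostly on a spread fitted over all probe sets. An SE is therefore not a measure of how close the 2 differences of a gene were. The spread between arrays may be technical in part, but the arrays also differed in sex-linked transcripts, as given below. Levels are given as log2(intensity + 16), and a difference is number 1 minus number 0 on that scale, which understates the change of dim probe sets. Levels are given in pairs, number 0 before number 1, for the cDNA arrays first and the aRNA arrays after them.

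Depth on an array is signal over background. The 95th percentile of the 27 Bacillus control probe sets was an intensity of 212 and 249 on the cDNA pair and of 123 and 126 on the aRNA pair, and a value under it is called under background. Of the 22519 probe sets tested, between 1.17% and 3.70% lay under it on an array. Of 10 motor neuron genes on the array, 7 were above background on all 4 arrays. Isl1, a transcription factor that specifies motor neurons, read 15.60 and 15.92 on cDNA and 14.91 and 14.98 on aRNA. Mnx1, another such factor, was under background on all 4 arrays, and Chat, the acetylcholine-making enzyme, on cDNA array 0. Of 10 forebrain genes, 5 were above background on all 4 arrays, Bcl11b (12.03 and 11.50 on cDNA, 9.50 and 9.27 on aRNA) among them, while Emx2 was under it on all 4 and Tbr1 on 3. Only 3 of the 21 Hox genes on the array, the code of axial position in hindbrain and spinal cord, passed the filter on low values.

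The arrays of number 0 were unlike in sex-linked transcripts. Xist, which silences 1 of the X chromosomes in female cells, read 11.94 on cDNA array 0 but 8.55 on aRNA array 0, against 12.51 and 15.44 on cDNA array 1 and aRNA array 1 (probe set 1436936_s_at). The Y-linked translation factor gene Eif2s3y read 13.12 on aRNA array 0 but 6.79 on aRNA array 1, and 7.92 and 4.75 on cDNA. The Y-linked histone demethylase family genes Kdm5d (9.93 at 1424903_at) and Uty (9.52 at 1459565_at) were also highest on aRNA array 0. The aRNA arrays thus differ in sex-linked transcripts as well as in number, and the part of this in the results was not tested. Without the genes of the X and Y chromosomes, 9 probe sets were called higher and 1 lower. That fit left out only those genes and kept the differences of all 14 called probe sets as they were. It therefore does not test the part of sex in the results.

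Microglia are the resident macrophages of the central nervous system. When neurons are damaged or their axons cut, microglia turn down their resting genes and raise a set that includes phagocytic receptors, lysosomal proteases and their inhibitors, and astrocytes raise the filament protein Gfap. Injured sensory and motor neurons switch on a regeneration programme led by the transcription factors Atf3 and Jun, with Sprr1a and neuropeptides such as galanin among the genes that follow. This is background on the genes named below and does not say what the RNA on these arrays had been through.

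Genes of microglia and other myeloid cells and of the response to nerve injury made up most of the probe sets called higher on number 1. With preparation as a block, 12 of 22519 probe sets were called higher on number 1 (0.0533%) and 2 were called lower (0.00888%) at a limma adjusted p under 0.05. Those higher included Ctss, Ly86, Tyrobp, Mpeg1, C1qa, Lgals3 and Cst7 of microglia and other myeloid cells, and Sprr1a, Atf3 and Gal from the list of nerve injury genes. The rest were Gfap of astrocytes and 1 probe set, 1419004_s_at, that the annotation gives to several genes. Those lower were Prdx2 and Rab3a. At an unadjusted p under 0.05, 1319 probe sets passed (5.86% of those tested), 735 higher and 584 lower.

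The regulatory sequence upstream of 3 of these genes is shown because it holds 1 or more of the motifs looked for. GAGGAA is the core of the site of the myeloid factor PU.1. TGANTCA is the site of AP-1, to which Jun belongs, and GAAANNGAA is an interferon response motif. The sequences are the 250 bases before each start, 5′ to 3′ along the gene, from RefSeq on build GRCm38.p6, with motif matches in capitals. They lie at chr3:92485882-92486131 on the minus strand (Sprr1a), chr3:95526536-95526785 on the plus strand (Ctss) and chr1:191183334-191183583 on the minus strand (Atf3).
Sprr1a: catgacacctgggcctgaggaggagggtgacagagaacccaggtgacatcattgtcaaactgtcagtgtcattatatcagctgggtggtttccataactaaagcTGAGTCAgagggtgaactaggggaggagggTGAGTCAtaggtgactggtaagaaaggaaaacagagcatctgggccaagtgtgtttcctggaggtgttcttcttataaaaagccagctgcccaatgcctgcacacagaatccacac
Ctss: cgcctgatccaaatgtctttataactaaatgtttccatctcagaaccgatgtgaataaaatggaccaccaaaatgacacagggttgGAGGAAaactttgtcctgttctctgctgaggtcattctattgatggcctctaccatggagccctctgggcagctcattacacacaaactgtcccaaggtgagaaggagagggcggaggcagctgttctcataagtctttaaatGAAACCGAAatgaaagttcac
Atf3: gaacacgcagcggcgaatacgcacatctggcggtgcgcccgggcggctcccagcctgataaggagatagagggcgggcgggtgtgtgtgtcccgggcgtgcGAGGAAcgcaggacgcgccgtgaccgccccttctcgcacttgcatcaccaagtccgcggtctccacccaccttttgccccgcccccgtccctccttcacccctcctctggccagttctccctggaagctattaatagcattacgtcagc
The Sprr1a window held 2 AP-1 motifs, 146 and 116 bases before the start. The Ctss window held the PU.1 core 164 bases and the interferon motif 21 bases before it, and the Atf3 window held the PU.1 core 149 bases before it. Of the 13 called genes with a name, 11 had an entry in the promoter table. On both strands, GAGGAA was in the windows of 2 of the 11 and of 23.3% of all 32851 promoters, TGANTCA in 1 of the 11 and 6.75% of all, GAAANNGAA in 1 of the 11 and 7.13% of all, and the CRE motif TGACGTCA in 0 of the 11 and 1.55% of all. No motif overlapped another in these windows, and a match describes letters only.

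The list of activated microglial genes held 3 of the called genes. Cst7, cystatin F, an inhibitor of lysosomal cysteine proteases, read 7.72 and 11.23 on cDNA and 6.63 and 11.15 on aRNA. Both number 0 arrays lay under background, so Cst7 was at least 13.1-fold higher on number 1 (adjusted p = 0.0175). Lgals3, galectin-3, read 8.39 and 11.37 on cDNA and 8.72 and 11.32 on aRNA, a mean difference of 2.79 (SE 0.43, adjusted p = 0.0476). For both genes, picked here as called, the groups did not overlap. Over all tested probe sets, both number 1 arrays lay above both number 0 arrays in 6.63% and below both in 6.91%. Tyrobp, the adaptor that signals for Trem2, read 11.76 and 13.71 on cDNA and 10.15 and 13.69 on aRNA, a difference of 2.74 (SE 0.37, adjusted p = 0.022).

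Of the 17 activated microglial genes on the array, 14 were higher on number 1 in both preparations, 0 were lower in both and 9 were at least 2-fold higher in both, or 7 when levels under background were raised to it. Over all 18193 genes, 24.8% were higher in both, 26.3% lower in both and 1.98% at least 2-fold higher in both (0.561% with levels raised in this way). These shares over all genes stand beside the counts of every list below. The median difference of the list was 2.25, with 1.95 on cDNA and 1.73 on aRNA, and that of all genes was −0.01. The median was 1.31 with levels under background raised, 0.96 over all probe sets of these genes, 1.78 over its tested members and 0.54 over the members left by a filter at the 75th percentile. Lpl, lipoprotein lipase, read 9.07 and 11.32 on cDNA and 5.53 and 11.85 on aRNA, with aRNA array 0 under background, and was not called (adjusted p = 0.0943). Likewise not called was Clec7a, the beta-glucan receptor dectin-1, with 8.94 and 11.07 on cDNA, 8.23 and 12.43 on aRNA, and an adjusted p of 0.0588. Trem2, a lipid-sensing receptor, lay outside the probe sets tested: it read 5.41 and 10.26 on cDNA and 5.34 and 6.78 on aRNA, above background on cDNA array 1 alone.

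Another 3 called genes were on the general myeloid list. Ctss, the lysosomal protease cathepsin S, read 13.99 and 15.53 on cDNA and 13.77 and 15.73 on aRNA, 3.35-fold higher on number 1 (SE 0.20 on the log2 scale, adjusted p = 0.00902). Ly86, the partner of a Toll-like receptor homologue, read 10.86 and 13.32 on cDNA and 10.67 and 13.82 on aRNA, 6.98-fold higher (SE 0.32, adjusted p = 0.00902). Mpeg1, the pore-forming perforin-2 of macrophages, read 9.60 and 11.64 on cDNA and 8.98 and 13.47 on aRNA, so its difference was 2.05 in one preparation and 4.49 in the other (adjusted p = 0.0476). The groups did not overlap in any of the 3, also picked as called. Both number 1 arrays lay above both number 0 arrays in 6.63% of all tested probe sets. Cd68, a lysosomal glycoprotein used as a macrophage marker, read 9.43 and 11.52 on cDNA and 7.91 and 11.58 on aRNA and was not called (adjusted p = 0.0613).

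Of the 25 general myeloid genes on the array, 21 were higher in both preparations, 0 lower in both, 9 at least 2-fold higher in both and 3 called. Their median difference was 0.61 on cDNA and 2.35 on aRNA. The macrophage receptor genes Mrc1, with differences of −1.20 on cDNA and 2.48 on aRNA, and Cd163, with −1.06 and 1.76, were of opposite sign in the preparations, each with aRNA array 0 under background.

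Resting microglial genes were not lower in both preparations in any of 11 cases and were higher in both in 7, with a median of 0.67. Siglech, a microglial lectin, read 8.32 and 9.87 on cDNA and 7.86 and 9.65 on aRNA. Csf1r, the receptor that microglia need to survive, read 14.05 and 14.15 on cDNA and 12.50 and 15.13 on aRNA, so nearly all of its difference lay between the aRNA arrays. P2ry12, a purine receptor of resting microglia, had a difference of 0.96 on cDNA and −0.21 on aRNA, and Cx3cr1, the fractalkine receptor, had −0.68 and 1.74. No gene of this list was called.

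Together the microglial and myeloid lists held 53 genes on the array, of which 42 were higher in both preparations, 0 lower in both, and 20 at least 2-fold higher in both (37.7%), or 18 with levels under background raised. They made up 18 of the 106 genes at least 2-fold higher in both and 0 of the 110 at least 2-fold lower in both among the tested probe sets. Of 11945 genes tested, 11 resting microglial, 12 activated microglial and 21 general myeloid genes passed the filter. Cst7 and Lpl, with number 0 means of 7.17 and 7.30, reached the filter level of 8.38 only through the number 1 arrays. So did Gpnmb (7.80), Gpr34 (8.02), Cd52 (8.08), Siglech (8.09) and Ptprc (8.25), and the called probe set 1419004_s_at (7.32). All of these named genes but Ptprc are among the 18, so that count is partly set by the filter. In bulk RNA, more cells of a type and more of its RNAs per cell cannot be told apart. Of the other blood cells, no lymphocyte gene (12 on the array) and no red cell gene (3 on the array) passed the filter. The mean lymphocyte level was 7.13 and 6.74 on cDNA and 6.42 and 6.49 on aRNA. Neutrophil genes had a mean level of 8.47 and 9.76 on cDNA and 6.84 and 7.06 on aRNA. Of these 9 genes, 5 were higher in both preparations and 0 lower in both, with a median of 0.61, and none was called. At least 2-fold higher in both were 3, or 1 with levels under background raised. Lcn2, above background on all 4 arrays, had differences of 1.47 on cDNA and 2.26 on aRNA. The calgranulin gene S100a8, also on this list, read 11.43 and 13.79 on cDNA and was under background on either aRNA array, and Cxcr2 lay under it on all 4. The part of neutrophils in the myeloid result was not tested.

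**Figure D1:**
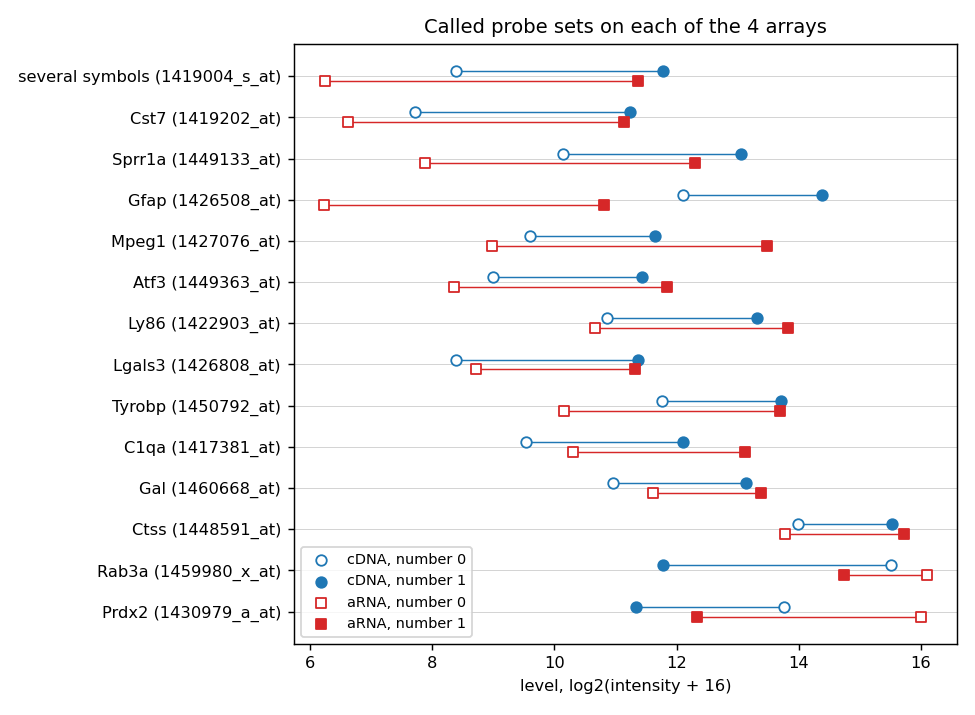
Level of each called probe set, log2(intensity + 16), on cDNA array 0 and 1 (open and filled circles) and on aRNA array 0 and 1 (open and filled squares), with a line joining the arrays of 1 preparation. The filled symbols lie to the right of the open ones in 12 probe sets and to the left in Prdx2 and Rab3a.

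Complement genes differed in both directions, and 1 was called. C1qa, a chain of the initiating component C1q, read 9.54 and 12.11 on cDNA and 10.30 and 13.12 on aRNA, 6.48-fold higher on number 1 (SE 0.35 on the log2 scale, adjusted p = 0.0175). Its partner chains were not called: C1qb had differences of 0.58 and 2.15 on cDNA and aRNA, and C1qc 1.30 and 2.15. C3ar1, a receptor for the C3a fragment, read 7.43 and 9.85 on cDNA and 6.03 and 9.24 on aRNA, with both number 0 arrays under background, and lay outside the probe sets tested. Cd55, a regulator that shields cells, had −0.32 and −0.47 and was not called. Of 12 complement genes, 5 were higher and 4 lower in both preparations. The median over the list was −0.22 for the mean difference, although it was 0.11 and 0.56 for cDNA and aRNA taken alone, and 0.15 with levels under background raised. In that last value Cfb, under background on all 4 arrays, enters with 0.12, set by the background levels alone.

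Lysosomal genes were higher in both preparations for 15 of 21 and lower in both for 3, with a median of 0.47, and the called ones were Ctss and Cst7. Ctsz, cathepsin Z, read 13.91 and 14.71 on cDNA and 11.41 and 13.06 on aRNA (adjusted p = 0.383). The broadly expressed members differed little: Lamp1, a lysosomal membrane protein, had differences of 0.22 and 0.04, and Psap, the precursor of the saposins, −0.19 and −0.01.

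Nerve injury genes held 3 of the called probe sets. Sprr1a, a small proline-rich protein of regenerating axons, read 10.14 and 13.06 on cDNA and 7.89 and 12.31 on aRNA, 12.7-fold higher on number 1 (SE 0.43 on the log2 scale, adjusted p = 0.00902). Atf3 read 8.99 and 11.43 on cDNA and 8.37 and 11.85 on aRNA, 7.77-fold higher (SE 0.44, adjusted p = 0.0439). Gal, the neuropeptide galanin, read 10.96 and 13.14 on cDNA and 11.61 and 13.37 on aRNA, 3.92-fold higher (SE 0.31, adjusted p = 0.0476). In all 3, picked here as called, both number 1 arrays stood above both number 0 arrays, as they did in 6.63% of all tested probe sets.

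The rest of that list was smaller or uneven. Npy, neuropeptide Y, read 9.72 and 11.58 on cDNA and 7.46 and 13.10 on aRNA, the 2 number 1 arrays above both number 0 arrays, and was not called (adjusted p = 0.104). Vip, vasoactive intestinal peptide, had differences of 1.19 and 1.32, and Ngfr, the p75 neurotrophin receptor, 0.85 and 1.15. Gap43, a growth cone protein, had 0.52 and 0.48, and Jun 0.16 and 0.10. Of the 26 genes, 15 were higher and 2 lower in both preparations, and 5 were at least 2-fold higher in both. Over all genes these shares were 24.8%, 26.3% and 1.98%. The median was 0.47. Chl1, a cell adhesion gene, read 7.97 and 10.05 on cDNA and 8.84 and 10.92 on aRNA at probe set 1417795_at, but 0.86 and 0.84 were the differences at its brighter probe set 1435190_at, and neither was called.

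Gfap was higher on number 1 at each of its 3 tested probe sets, and 1 was called. At 1426508_at it read 12.10 and 14.38 on cDNA and 6.23 and 10.81 on aRNA. The levels follow the preparation as well, since cDNA array 0 lay above aRNA array 1. aRNA array 0 was under background, so across both preparations Gfap was at least 7.94-fold higher on number 1 (adjusted p = 0.034). At 1440142_s_at the difference was 1.14 on cDNA and 5.27 on aRNA (adjusted p = 0.265). At 1426509_s_at, where aRNA array 0 was also under background, it was 1.59 on cDNA and at least 12.4-fold on aRNA (adjusted p = 0.166). Of the 17 reactive astrocyte genes, 8 were higher and 1 lower in both preparations. Cd44, a hyaluronan receptor, read 9.38 on cDNA array 1, with cDNA array 0 under background, and 8.56 and 11.56 on aRNA. Lcn2, lipocalin-2, which is also on the neutrophil list, had differences of 1.47 and 2.26, and the intermediate filament gene Vim −1.25 and 1.83. Genes of resting astrocytes differed less, with a median of 0.34. Among them the potassium channel gene Kcnj10 read 12.60 and 13.45 on cDNA and 13.82 and 15.89 on aRNA (adjusted p = 0.166).

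For each gene called lower, another probe set had a difference of the opposite sign. Prdx2, peroxiredoxin-2, an antioxidant enzyme, read 13.75 and 11.34 on cDNA and 16.005 and 12.33 on aRNA at 1430979_a_at, a difference of −3.04 (SE 0.31, adjusted p = 0.00739). At 1418506_a_at it read 15.59 and 15.75 on cDNA and 15.86 and 16.49 on aRNA. Rab3a, a small GTPase of synaptic vesicles, read 15.51 and 11.77 on cDNA and 16.10 and 14.74 on aRNA at 1459980_x_at, a difference of −2.55 (SE 0.39, adjusted p = 0.0476). At 1422589_at its differences were 0.23 and 0.30. A name ending in _x_at marks a probe set that may bind other transcripts.

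Meningeal and fibroblast genes were lower on number 1 in both preparations for 9 of 13 and higher in both for 1, with a median of −0.79, and none was called. Over all genes 26.3% were lower in both. Dcn, the collagen-binding proteoglycan decorin, read 13.03 and 12.05 on cDNA and 15.28 and 14.26 on aRNA, close to 1 unit lower in each (adjusted p = 0.436). Aldh1a2, which makes retinoic acid, had differences of −0.91 and −1.14, and Islr −1.20 on cDNA, with aRNA array 1 under background. Mgp, matrix Gla protein, which is not in the list, had the lowest adjusted p of the genes named as lower in both and not called, 0.0588: it read 15.52 and 13.81 on cDNA and 10.88 and 8.88 on aRNA. The list's mean level was 12.80 and 11.94 on cDNA and 9.69 and 9.46 on aRNA.

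Other genes at least 2-fold lower in both, none of them called, included the transporter gene Slc47a1, the adhesion gene Cdh1 (10.95 and 8.80 on cDNA, 8.77 and 5.89 on aRNA), the ephrin receptor gene Epha3 at 1455426_at (10.56 and 8.58, then 10.47 and 8.52) and the potassium channel gene Kcnj3 at 1444025_at (9.80 and 7.56, then 10.02 and 8.03). Of the number 1 arrays, Slc47a1 and Cdh1 were under background on aRNA and Kcnj3 on cDNA. At other probe sets the differences were smaller, for Epha3 −0.47 and −1.82 at 1425575_at, and for Kcnj3 −0.78 and −1.26 at its brightest, 1455374_at. At 1421468_at Kcnj3 had differences of opposite sign, −0.58 on cDNA, with cDNA array 1 under background, and 0.41 on aRNA. Slc22a6, also named by rank, had a difference of −1.96 on cDNA, but on aRNA number 1 was under background and the bound was 1.22-fold. Itih5, a hyaluronan-binding protein gene, was at least 5.25-fold lower at 1441946_at, where cDNA array 1 was under background (adjusted p = 0.124), but had differences of −0.63 and 0.39 at its brightest probe set, 1429159_at.

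**Figure D2:**
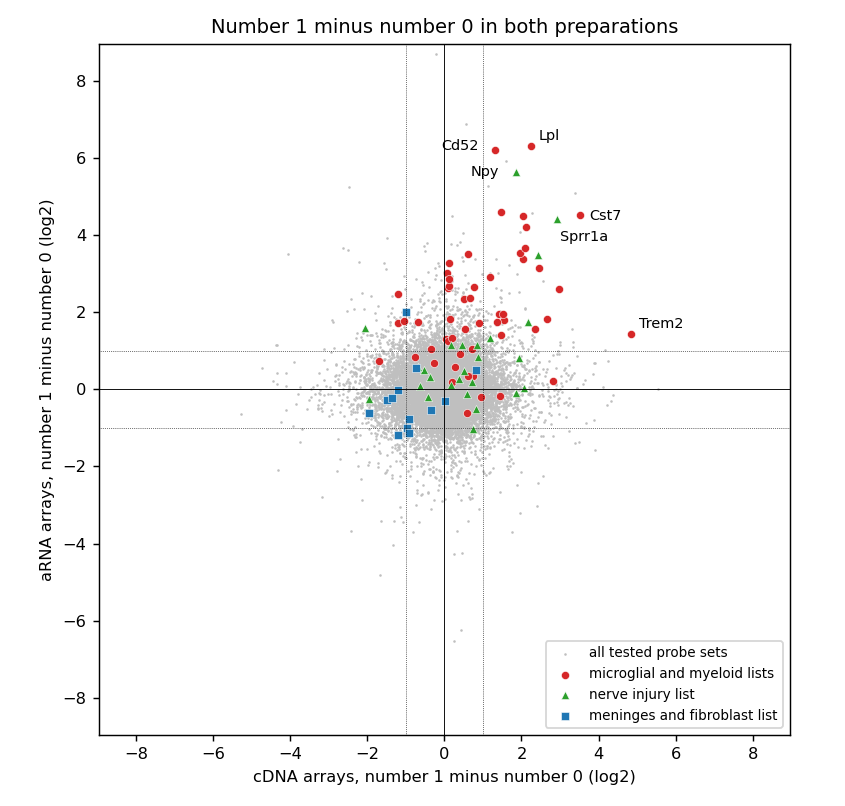
Difference number 1 minus number 0 on cDNA (horizontal) and on aRNA (vertical), log2, for the 22519 tested probe sets (grey) and for 1 probe set of each gene in the microglial and myeloid (red), nerve injury (green) and meningeal (blue) lists, tested or not. Dotted lines mark 2-fold. Red points fill the upper right, where both preparations are higher on number 1, and none lies in the lower left.

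Across all probe sets the preparations had little in common. Pearson's r between the cDNA and the aRNA difference was 0.0412 and Spearman's rho 0.0345 over 22519 probe sets, which are not independent replicates, and 51.5% had the same sign. At least 2-fold in both preparations, 140 probe sets were higher (0.622%) and 125 lower (0.555%), while 227 were at least 2-fold in opposite directions. With levels under background raised, 123 were higher and 100 lower in both. The 140 were 10.4% of the 1344 at least 2-fold higher on cDNA and 13.3% of the 1049 on aRNA. The 125 were 7.42% of the 1684 lower on cDNA and 14.1% of the 884 lower on aRNA. At 4-fold, 14 were higher in both, 6 lower in both and 13 opposed.

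Most of the agreement by fold was among dim probe sets, and so was most of the disagreement. With the tested probe sets split by level into 3 equal parts, 93 of the 140 higher in both were in the dimmest, 34 in the middle and 13 in the brightest part, and of the 227 opposed 167, 46 and 14. The 14 calls ran the other way, with 3, 5 and 6. The median size of a difference was 0.58 in the dimmest and 0.24 in the brightest part on cDNA, and 0.43 and 0.26 on aRNA.

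**Figure D3:**
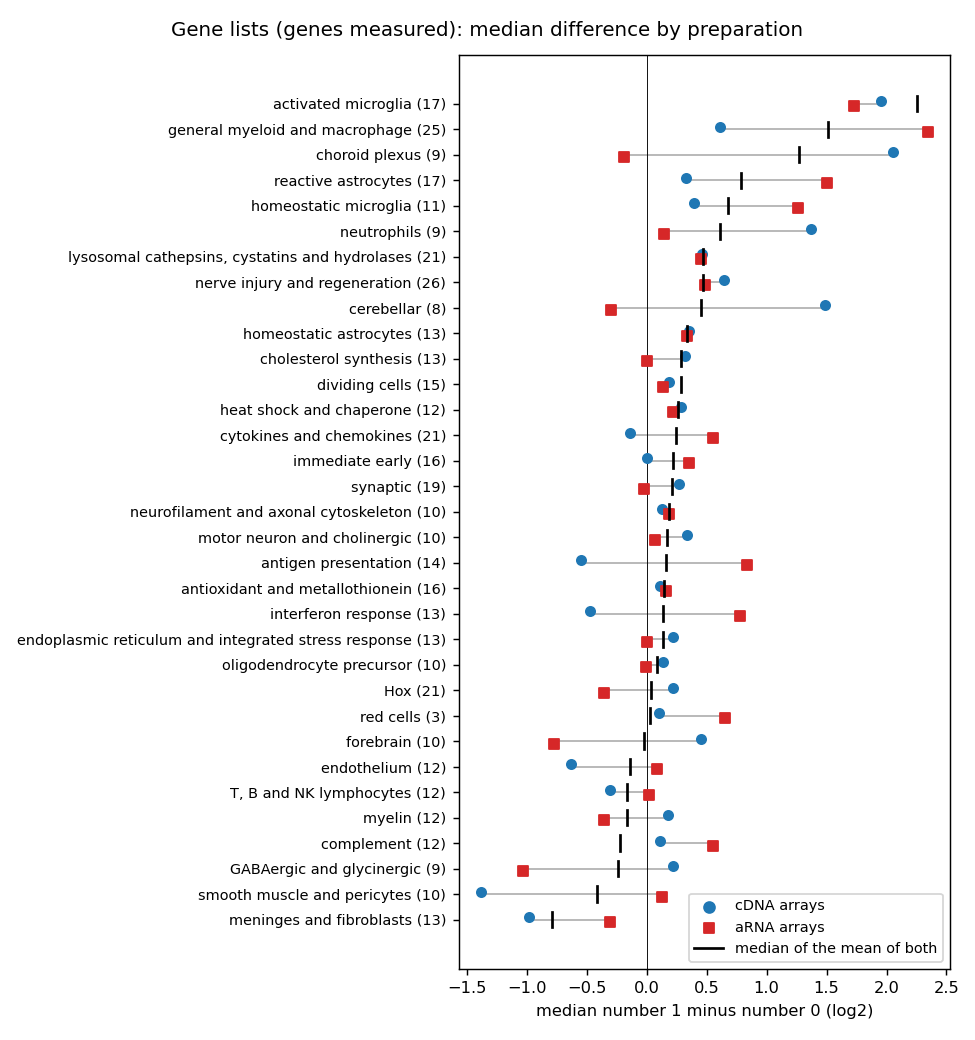
Median difference number 1 minus number 0 (log2) of 33 gene lists on the cDNA arrays (circles) and on the aRNA arrays (squares), with a bar at the median of the mean of both and the number of genes measured in brackets. Activated microglia and general myeloid genes lie to the right in both preparations, meningeal genes to the left in both, and cerebellar and smooth muscle genes on opposite sides. Levels under background enter as measured.

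Several gene groups differed in one preparation only or in opposite directions; with 1 array per number in each preparation, no such difference was tested. Choroid plexus genes, from the epithelium that secretes cerebrospinal fluid, had a median of 2.05 on cDNA and −0.19 on aRNA. Of these 9 genes, 2 were above background on all 4 arrays and 5 were under it on both aRNA arrays, so the aRNA median rests on levels at or near background. Ttr, its thyroid hormone carrier, was higher in both, with 15.81 and 17.17 on cDNA and 8.01 and 9.20 on aRNA (adjusted p = 0.358). Otx2, a transcription factor of that epithelium, read 8.03 and 11.27 on cDNA and was under background on either aRNA array. Cerebellar genes had medians of 1.49 and −0.30, and 7 of these 8 genes were of opposite sign in the preparations. Car8, with differences of 1.48 and −0.99, was among the 7. Gabra6, a receptor subunit of granule cells, was the 1 higher in both. It read 11.76 and 14.78 on cDNA and 7.33 and 7.68 on aRNA.

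Smooth muscle and pericyte genes went the other way, with medians of −1.38 and 0.13. Acta2, smooth muscle actin, read 15.41 and 14.04 on cDNA and 11.54 and 12.77 on aRNA. Inhibitory neuron genes had medians of 0.22 and −1.03, and Slc6a5, the glycine transporter of glycinergic terminals, read 9.88 and 10.35 on cDNA and 11.76 and 7.51 on aRNA. Of 13 interferon response genes, 1 was higher in both and the other 12 were of opposite sign, with medians of −0.47 on cDNA and 0.78 on aRNA. Antigen presentation genes did likewise, with −0.55 and 0.84: Cd74, the invariant chain, read 13.35 and 11.96 on cDNA and 8.99 and 9.38 on aRNA.

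**Figure D4:**
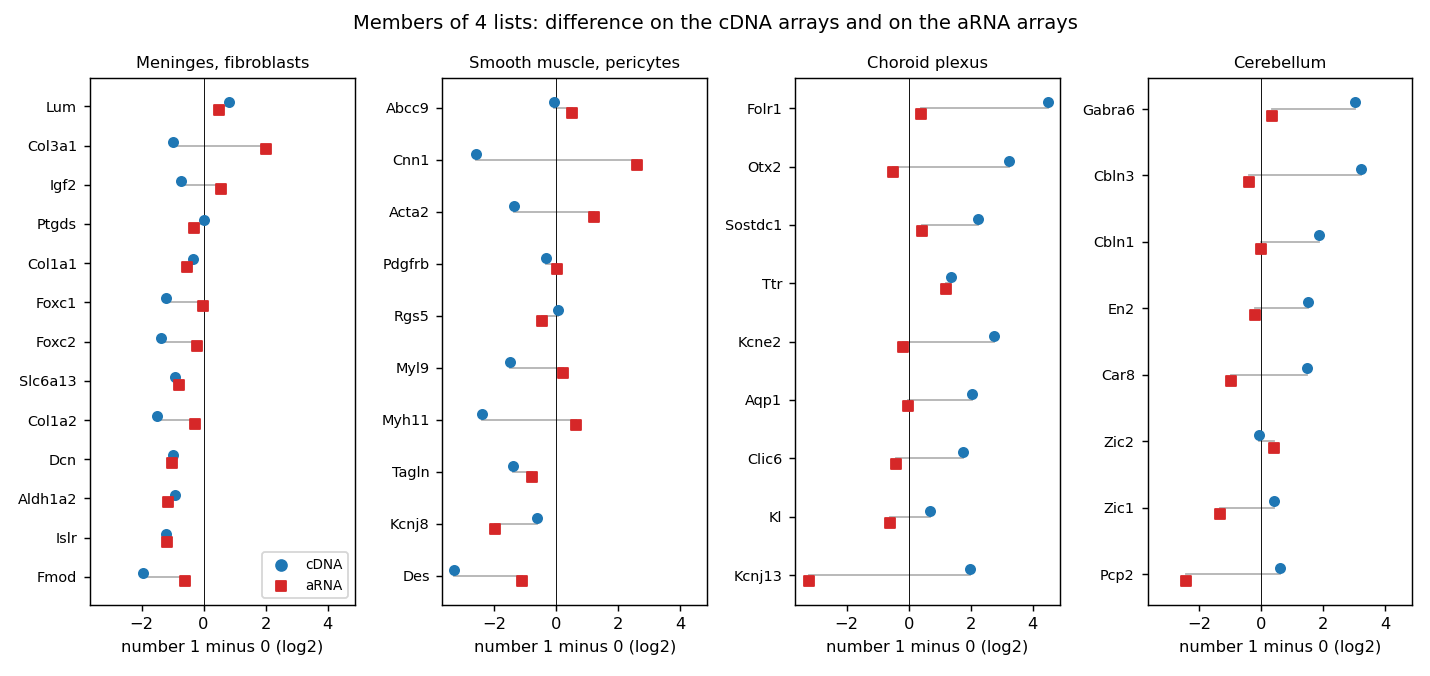
Difference number 1 minus number 0 (log2) of each gene in the meningeal, smooth muscle, choroid plexus and cerebellar lists, on the cDNA arrays (circles) and on the aRNA arrays (squares). In the meningeal list 9 of 13 genes have both symbols below 0, and in the choroid plexus list the circles lie above 0 for all 9 genes and the squares for 3.

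No motor neuron, axonal or myelin gene was called. Isl1, with differences of 0.32 and 0.08, Prph, an intermediate filament of peripheral and motor neurons, with −0.06 and 0.06, and Slc18a3, the vesicular acetylcholine transporter, with 0.22 and 0.14, had small differences in both preparations. The median was 0.17 over 10 motor neuron genes, 0.18 over 10 neurofilament and axonal genes, and 0.21 over 19 synaptic genes. Of 12 myelin genes, 1 was higher and 5 lower in both (41.7%, against 26.3% of all genes), with Mbp, myelin basic protein, at 0.11 and 0.16.

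The calls rest on few arrays: each probe set had 1 residual degree of freedom, and its spread was drawn mostly from a trend fitted over all probe sets. Without that intensity trend, or without preparation as a block, limma called 0 probe sets (1101 and 47 at an unadjusted p under 0.05). Over the other alternatives it called between 7 and 55, and a difference within 1 preparation has no replicate check.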

How the data were processed

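Each of 4 Affymetrix mouse arrays gave 1 value for each of 45101 probe sets. The authors deposited these values as intensity on a linear scale, with no detection call; the summarising software was not given in the sources used here. Their 2% trimmed mean was 2500.02 on every array, so they were already scaled and were kept as they stand. A pseudocount of 16 was added before log2. The 64 control probe sets were left out, and of the other 45037 the 22519 with a mean at or above the median (8.38) were tested. Number 1 was compared with number 0 in limma 3.58.1 (R 4.3.3), with preparation as a block, an intensity trend, and Benjamini-Hochberg adjustment over all probe sets tested (threshold 0.05). This leaves 1 residual degree of freedom, to which the fit adds 11.3 from all probe sets. The script was tested on simulated data. The block was the preparation, which the titles give. Whether the same RNA was used in both preparations is not stated. At number 0, Xist read 13.80 on cDNA and 4.38 on aRNA at 1427263_at, and Eif2s3y read 7.92 and 13.12 at 1417210_at. The block therefore cannot be taken to pair arrays of the same RNA.

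The platform annotation supplied gene symbols: 34945 probe sets had 1 symbol, 932 had several and 9160 had none; 99.4% of the first were found in a RefSeq gene table. A list uses 1 probe set per gene, the brightest on average. Where an array of the lower side lay under background, a fold is a lower bound against the background level. Genes were named if called, if among the 12 per direction with the largest smaller-of-both difference, if among up to 6 members of a described list so ranked, if sex-linked, or if among the 5 most opposed each way; genes given only as low or opposed examples of a list were chosen after their values were seen. The comparison, the 34 gene lists and the rules were chosen with earlier results of these data known, so no count over a list is independent support. No set test was run. Alternatives were the pseudocount, the filter, scaling, probe set class, trend, robust fit, the block and the X and Y chromosomes; the last was chosen after seeing the data, as was raising levels under background for the list medians and 2-fold counts. Plots used matplotlib 3.10.9 (Python 3.11.15).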

Additional observations from a re-analysis of the deposited data

Results flagged for a closer look

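Lists and genes whose difference had opposite signs in the cDNA and the aRNA arrays are given here. The difference between the preparations was not tested, since each had 1 array per number. As the median cDNA difference minus the median aRNA difference (log2), lists higher on cDNA and lower on aRNA were choroid plexus (2.24), cerebellar (1.79), inhibitory neuron (1.26), forebrain (1.23), Hox (0.58), myelin (0.54), synaptic (0.29) and oligodendrocyte precursor genes (0.14). Lists lower on cDNA and higher on aRNA were smooth muscle and pericyte (−1.51), antigen presentation (−1.39), interferon response (−1.24), endothelial (−0.72), cytokine (−0.70), immediate early (−0.35) and lymphocyte genes (−0.33). With levels under background raised to it, the medians of the choroid plexus, Hox, cytokine, immediate early and lymphocyte lists no longer had opposite signs. A gene under background on both arrays of a preparation then takes the gap between their background levels, 0.216 on cDNA and 0.027 on aRNA. The raised Hox and lymphocyte medians, the choroid plexus median on aRNA and the cytokine median on cDNA were these gaps. Their signs were set by the background and are not a measured change. Among single genes, the cDNA difference minus the aRNA difference was 5.19 for the potassium channel gene Kcnj13, 4.86 for the vesicular glutamate transporter gene Slc17a6, 4.81 for Rbm33, 4.38 for Ecrg4 and 4.15 for Cnpy1. It was −5.52 for Vwf, von Willebrand factor of endothelium, −4.76 for Ltbp1, −4.64 for Baiap3, −4.55 for Cbr2 and −4.18 for Coch. Slc17a6 read 7.22 and 9.65 (number 0, then number 1) on cDNA and 10.79 and 8.37 on aRNA, and Vwf read 12.97 and 10.75, then 5.32 and 8.61, with aRNA array 0 under background. Many of these sizes rest on levels not above background. That was so for Cnpy1 on both aRNA arrays, for Kcnj13, Rbm33 and Ecrg4 on aRNA array 1, for Ltbp1 and Baiap3 on aRNA array 0, for Cbr2 and Coch on cDNA array 1, and for Slc17a6 on cDNA array 0. With aRNA array 0 at the background level, Ltbp1 was at least 1.28-fold higher on aRNA.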

How the results depend on the processing

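The 14 called probe sets kept their direction under every scaling and pseudocount tried. The filters, the fit without trend, the robust fit and the fit without the block leave the differences as they are, so they could not turn it, and 9 of the 14 were tested with a filter at the 75th percentile and 12 without probe sets named _x_at or _s_at. Called higher and lower were 23 and 5 with no filter, 7 and 1 when each array was centred on its median, 42 and 13 after quantile normalization, 6 and 1 without probe sets named _x_at or _s_at, 6 and 1 with a robust fit, and 0 and 0 with no intensity trend or with no replicate block (preparation left out). Called lower were 4 with a pseudocount of 1 or a filter at the 75th percentile, and 1 with a pseudocount of 64 or without the X and Y chromosomes. Of the 14, all were still called with a pseudocount of 1, with no filter and after quantile normalization, 10 without the X and Y chromosomes, 9 with a pseudocount of 64 and 8 when centred. At least 2-fold in both preparations were 1150 higher and 1048 lower with no filter and 27 and 12 with a filter at the 75th percentile. At 1.5-fold they were 601 and 631, and at 4-fold 14 and 6. The cause of these shifts was not tested, except that filters change which probe sets are tested. Leaving out 1 replicate leaves 1 preparation's difference with 0 residual degrees of freedom, so no call could be fitted, and those differences stand in the text.

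List medians moved by more than 1 SD between the preparations as follows. With a filter at the 75th percentile they were 1.36 for resting microglia, 0.54 for activated microglia, 0.49 for complement, 0.39 for lysosome, −0.45 for cytokines, 0.23 for nerve injury, −0.23 for dividing cells and 0.17 for sex-linked genes. Over all probe sets of the genes they were 0.96 for activated microglia, 0.37 for lysosome, 0.21 for resting astrocytes, 0.085 for heat shock, 0.056 for antioxidant, −0.22 for oligodendrocyte precursor, 0.14 for axonal, 0.48 for lymphocyte and −0.030 for dividing cell genes. Over tested probe sets they were 1.78 for activated microglia, 0.74 for nerve injury, 0.046 for dividing cells and 0.18 for sex-linked genes, and without _x_at and _s_at 1.78, 0.66, −0.093 and 0.18. Quantile normalization gave 0.43 for lysosome, 0.17 for resting astrocytes, 0.076 for heat shock, 0.089 for antioxidant, −0.018 for axonal and 0.039 for sex-linked genes. Centring gave 0.44 for lysosome, 0.30 for resting astrocytes and 0.11 for antioxidant genes. A pseudocount of 64 gave 2.04 for activated microglia and 0.46 for lysosome, and 1 gave 0.48 for lysosome. Levels raised to background, an alternative chosen after seeing the data, gave 1.31 for activated microglia, 0.15 for complement, 0.34 for nerve injury and 0.12 for lymphocytes. A gene under background on all 4 arrays then has a difference of 0.12, set by the background levels alone. The lymphocyte median was that value, and Cfb enters the complement median with it. With 1 preparation alone the range was 1.73 to 1.95 for activated microglia, 0.11 to 0.56 for complement, 0.46 to 0.46 for lysosome, 0.33 to 0.36 for resting astrocytes, 0.49 to 0.64 for nerve injury, 0.0048 to 0.32 for cholesterol, 0.13 to 0.18 for axonal, −0.020 to 0.27 for synaptic, −0.98 to −0.31 for meninges, 0.11 to 0.65 for red cells and 0.13 to 0.18 for dividing cells.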
